A study of Mus musculus with 9 samples.

Results

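The 9 genes described here encode the core of transforming growth factor beta (TGF-beta) signalling: the ligand Tgfb1, the receptors Tgfbr1 and Tgfbr2, the signal transducers Smad2, Smad3 and Smad4, the inhibitor Smad7, and the repressors Ski and Skil. They were chosen by name, through the Entrez number of each count entry, and make up 9 of the 27179 entries. All 9 passed the filter on low counts, which left 12004 genes to test.

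RNA was sequenced from AML246, a mouse acute myeloid leukaemia line of the C57BL/6 strain. All cells were p53-/- and carried shPU.1, a hairpin RNA that lowers PU.1 (gene Spi1), a transcription factor of myeloid cells, and all were cultured with the cytokine IL3. There were 3 groups of 3 libraries, each made of clones 1, 2 and 4, which were grown from single cells of that 1 line. Wash cells had 14 days of doxycycline (Dox) and then 14 days without it, and were sorted as GFPhigh. Dox cells had 14 days of the drug and were sorted as GFPoff. Untreated cells had no drug and were sorted as GFPhigh. The drug, the GFP gate and the state of the hairpin change together, so their parts cannot be told apart, and the p-values reflect only how clones of 1 leukaemia vary.

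TGF-beta ligand is secreted in a latent form, bound to its own propeptide, and must be released before it can act. The active dimer binds the type II receptor (Tgfbr2), which recruits and phosphorylates the type I receptor (Tgfbr1), and this kinase phosphorylates the receptor-regulated SMADs, Smad2 and Smad3. These enter the nucleus with the common partner Smad4, while Smad7 blocks the receptor step and Ski and Skil (SnoN) bind SMAD complexes and repress their target genes. In blood cells the pathway is best known for holding progenitors out of division.

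The hairpin's target was read first as a check of the labels. Spi1 (Entrez 20375, chromosome 2, 91082374 to 91115759 on GRCm38) stood at 52.0, 40.6 and 23.9 CPM (read counts scaled to a common library size) in Wash clones 1, 2 and 4. It stood at 197, 191 and 156 CPM in the Dox libraries and at 48.1, 46.6 and 23.7 CPM in the untreated ones. Its levels therefore followed the labels in every clone. Library totals ran from 7408118 to 9803258 counts. Untreated clone 1 stood apart: 22.0% of its counts lay on 1 entry with no symbol (Entrez 100861531), against 0.153% to 1.64% in the other libraries, and its TMM scaling factor was 0.737, against 0.916 to 1.18. Genes of the mitochondrial genome held 3.16% to 21.1% of counts in Wash, 2.58% to 18.0% in Dox and 11% to 19.5% in untreated libraries. All 15 markers of myeloid leukaemia cells passed the filter on low counts, but some were low or differed with condition. Ptprc had 28 to 45.1 CPM in Dox and 0.988 to 2.02 CPM in untreated libraries. Cd33 had 2.65 to 10.4 CPM in Dox and 0.183 to 0.252 CPM in untreated libraries. Mpo had 0.872 to 27.7 CPM in Dox and 50.5 to 82.7 CPM in untreated libraries. Wash did not match untreated cells for all markers. The highest Mpo value, 1720 CPM, lay in Wash. So did those of Elane (203 CPM, untreated at most 66.4) and Ctsg (952 CPM, untreated at most 274). The lowest Csf2rb value, 485 CPM, also lay in Wash, against 1120 CPM or more in untreated libraries. The 9 lymphoid markers summed to at most 6.53 CPM in any library, with Pax5, Cd4 and Ncr1 at 0.

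Promoter sequences are given for the type II receptor, whose level differed most between conditions, for the type I receptor, which did not pass the test, and for Ski, the other gene that passed. Each runs 5′ to 3′ along the gene's strand, from 250 bases before to 50 after the start that RefSeq gives on GRCm38.p6. The stretch of Tgfbr2 is chr9:116175314-116175613 on the minus strand, that of Tgfbr1 is chr4:47352972-47353271 on the plus strand, and that of Ski is chr4:155222486-155222785 on the minus strand. Capitals mark the letters GGAA or their reverse complement TTCC, the core that ETS factors such as PU.1 bind.
Tgfbr2: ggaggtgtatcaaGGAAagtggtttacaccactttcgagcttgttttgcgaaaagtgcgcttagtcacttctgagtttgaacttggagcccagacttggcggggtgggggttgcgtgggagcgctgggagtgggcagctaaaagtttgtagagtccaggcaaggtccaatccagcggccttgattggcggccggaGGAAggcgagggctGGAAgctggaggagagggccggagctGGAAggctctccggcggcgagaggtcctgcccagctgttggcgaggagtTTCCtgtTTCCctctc
Tgfbr1: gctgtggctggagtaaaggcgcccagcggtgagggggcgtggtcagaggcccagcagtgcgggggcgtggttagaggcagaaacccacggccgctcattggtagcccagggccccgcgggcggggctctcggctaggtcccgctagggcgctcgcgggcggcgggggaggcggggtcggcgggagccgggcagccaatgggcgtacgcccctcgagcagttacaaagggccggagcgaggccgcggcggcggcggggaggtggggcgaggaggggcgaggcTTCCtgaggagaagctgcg
Ski: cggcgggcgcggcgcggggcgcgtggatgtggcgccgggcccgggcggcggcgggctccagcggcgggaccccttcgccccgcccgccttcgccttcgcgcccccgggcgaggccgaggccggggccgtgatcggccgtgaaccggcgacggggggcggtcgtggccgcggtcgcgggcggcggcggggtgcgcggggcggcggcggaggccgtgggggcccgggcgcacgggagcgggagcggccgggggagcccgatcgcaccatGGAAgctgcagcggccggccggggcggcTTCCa

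The Tgfbr2 stretch holds 6 GGAA cores, counted on both strands, at −237, −55, −41 and −15 before the start and at 35 and 42 after it. The Tgfbr1 stretch holds 1 and the Ski stretch holds 2. Over the 32851 promoters of 300 bases in the RefSeq table the median was 3, with 96.0% holding at least 1 core and 15.7% holding 6 or more, so the count in Tgfbr2 is high but common, and a second annotated start of Tgfbr1 (chr4:47385966-47386265) also holds 6. The longer PU.1-type letters GAGGAA occur once in Tgfbr2 at −57, overlapping a GGAA core, and in neither of the other stretches; 28.3% of all promoters hold them. The fuller form GAGGAAGT, held by 3.20% of promoters, is in none of these 3 stretches. The SMAD-binding letters CAGAC occur once in Tgfbr2 and in 49.6% of all promoters, and the palindrome GTCTAGAC, held by 0.213%, is in none of the 3. The GC-box letters GGGCGG are absent from Tgfbr2 but occur 2 times in Tgfbr1 and 6 times in Ski, against 35.7% of promoters with at least 1. GC content was 59.0% in Tgfbr2, 74.7% in Tgfbr1 and 85.3% in Ski, and the median of all promoters was 52.7%. These are matches of letters and no measurement of binding; 5 of the 9 genes had a promoter in the table.

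Of the 9 genes, Tgfbr2 and Ski were higher in Dox than in untreated cells, by 4.07-fold and 1.81-fold, and both were lower again in Wash than in Dox cells. No other member passed the test in either comparison with group means alone. Smad2 was also called higher in Dox, and Tgfb1 lower in Wash than in Dox, when the clone was entered as a block. Between Wash and untreated cells no member was called. The first comparison asks what differs when the hairpin against PU.1 is off, the second what differs once it is on again, and the third what is left after the full cycle. In bulk RNA of sorted cells, fewer cells that make a transcript and less of it per cell cannot be told apart.

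In Dox against untreated cells, 2 of the 9 members were called higher and 0 lower by edgeR's quasi-likelihood test at a Benjamini-Hochberg adjusted p of 0.05, against 6.57% of the 12004 genes called higher and 4.35% called lower. Scaled by library size alone in place of TMM, the split over all genes was 796 higher and 257 lower, against 789 and 522. When the clone was entered as a block, 3 were higher and 0 lower, where 24.8% of all genes were called, 13.0% higher and 11.7% lower. The median log2 fold change was 0.37 over the 9 genes and 0.00 over all tested genes. The Dox libraries lay wholly above the untreated ones for 5 members, where 20.4% of all genes do so, and wholly below for Smad4, where 18.5% do. In Wash against Dox cells 2 members were called lower and 0 higher, against 6.02% and 3.64% of all genes, and with the block 3 were lower and 0 higher, where 22.9% of all genes were called, 12.4% lower and 10.4% higher. The median log2 fold change was −0.38 over the members and 0.04 over all genes; 5 members lay wholly below the Dox libraries, where 14.5% of all genes do, and Smad4 wholly above, where 11.8% do. These comparisons share the Dox libraries, so a gene high in Dox is counted in both.

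**Figure D1:**
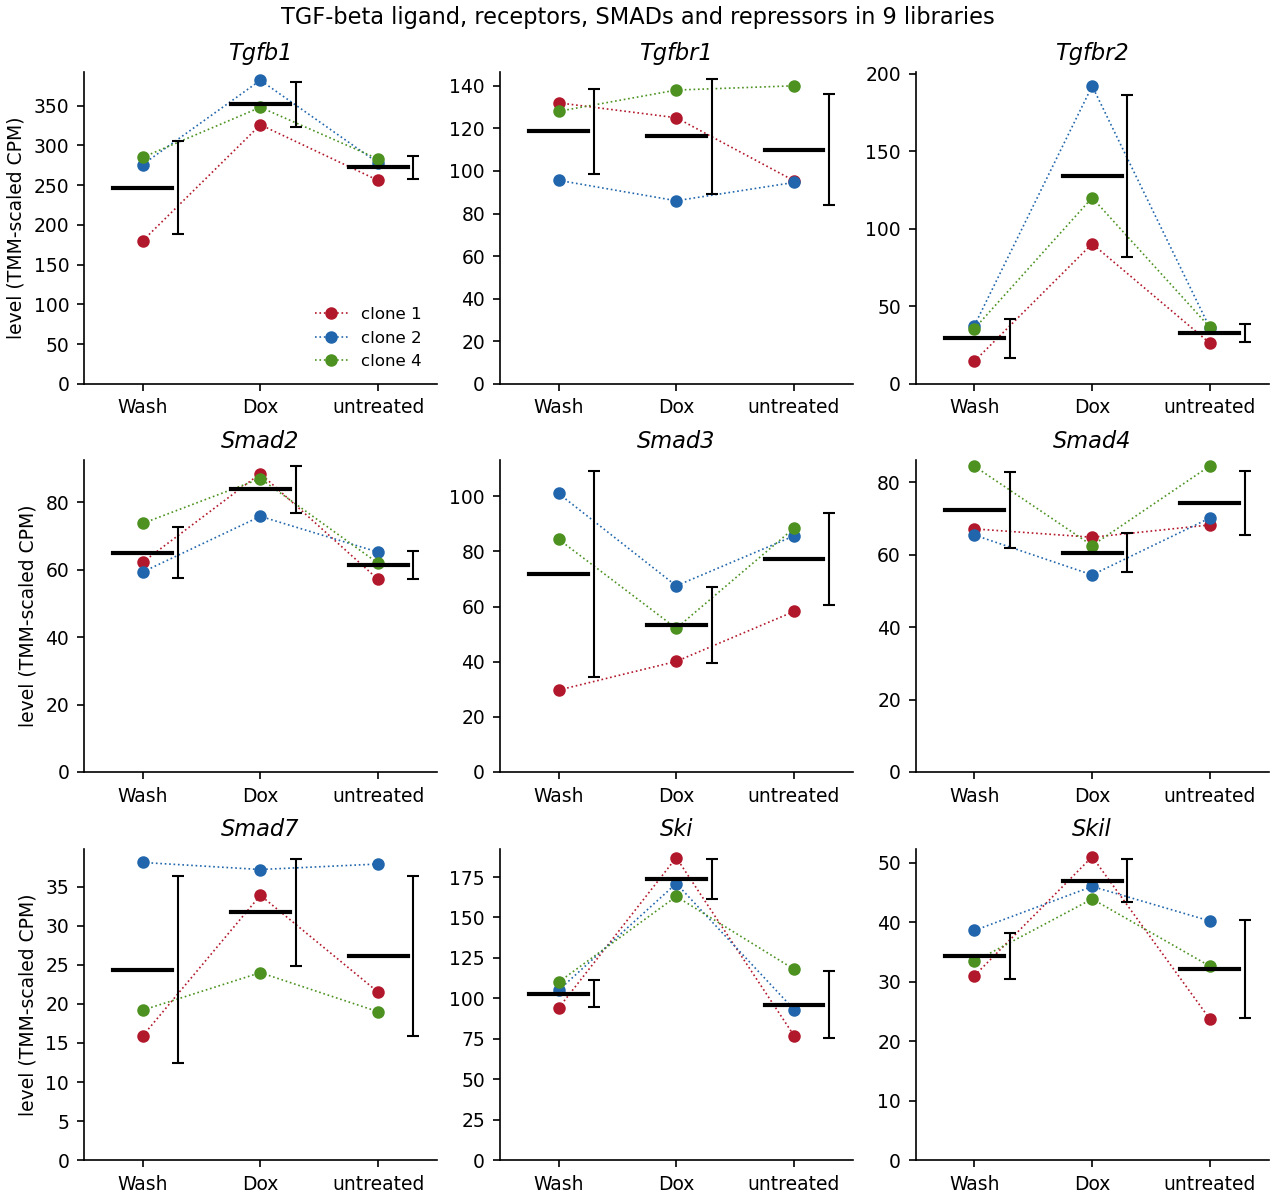
Level of each of the 9 genes in TMM-scaled CPM (vertical axis, from 0) in Wash, Dox and untreated libraries (horizontal axis). Points are single libraries coloured by clone, dotted lines join the libraries of 1 clone, thick bars are group means and error bars are 1 SD (n = 3). Tgfbr2, Ski, Tgfb1, Smad2 and Skil peak in Dox in every clone, whereas for Smad7 clone 2 is the highest in all conditions, at 37.2 CPM or more.

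Tgfb1 (Entrez 21803, chromosome 7, 25687002 to 25705077, plus strand), the ligand, was the most abundant member per unit of gene length in all 9 libraries. It stood at 180, 276 and 285 CPM in Wash clones 1, 2 and 4. The Dox libraries had 326, 382 and 348 CPM and the untreated ones 256, 278 and 283 CPM. Every Dox library exceeded every other library, and the lowest value was that of Wash clone 1. The ratio of Dox to untreated was 1.27, 1.38 and 1.23 within the clones, and the group difference did not pass the test (log2 fold change 0.37 ± 0.20 SE, adjusted p = 0.272 by edgeR). Wash against Dox was not called with group means (log2 fold change −0.51 ± 0.20, adjusted p = 0.148 by edgeR) but was called in the blocked fit (−0.53 ± 0.16, adjusted p = 0.0469). The ratio of Wash to Dox was 0.554, 0.721 and 0.820 in clones 1, 2 and 4. In the blocked fit without clone 1 Tgfb1 was called in both comparisons (adjusted p = 0.0421 for Dox against untreated and 0.0398 for Wash against Dox). That fit called 4117 and 4325 of 12143 genes in the same order. Without clone 2 or clone 4 Tgfb1 was called in neither comparison. The other TGF-beta isoforms were near the floor: Tgfb2 reached at most 1.84 CPM and Tgfb3 at most 0.882 CPM in any library, and neither passed the filter. Both were named after their values were seen. A count of 0 allows up to 0.265 to 0.550 CPM, depending on the library.

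Tgfbr2 (Entrez 21813, chromosome 9, 116087695 to 116175363, minus strand), the type II receptor that binds the ligand, stood at 14.6, 37.6 and 35.6 CPM in Wash clones 1, 2 and 4. It reached 90.3, 192 and 120 CPM in Dox, against 26.2, 36.0 and 36.4 CPM in untreated cells. The lowest Dox library was more than double any other library, and clone 1 was lowest in each condition. Dox averaged 134 ± 52.2 CPM and untreated cells 32.9 ± 5.78 CPM (SD, n = 3 each), and the rise passed the test (log2 fold change 2.03 ± 0.39 SE, adjusted p = 0.0137 by edgeR). Within clones 1, 2 and 4 the ratio of Dox to untreated was 3.44, 5.33 and 3.31. Wash averaged 29.3 ± 12.7 CPM (SD, n = 3), and Tgfbr2 fell in Wash against Dox cells (log2 fold change −2.20 ± 0.39, adjusted p = 0.0113 by edgeR), with ratios of 0.162, 0.196 and 0.296.

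With group means these Tgfbr2 calls depended on which libraries were fitted. Without clone 1 the Dox call held (log2 fold change 2.11, adjusted p = 0.00882 by edgeR), but leaving out clone 2 (1.74, adjusted p = 0.102), clone 4 (2.17, adjusted p = 0.239) or the single untreated library of clone 1 (1.89, adjusted p = 0.0689) ended it. For Wash against Dox it held without clone 1 (−2.09, adjusted p = 0.00842) and without the untreated library of clone 1 (adjusted p = 0.0224), but not when clone 2 (−2.07, adjusted p = 0.0955) or clone 4 (−2.43, adjusted p = 0.238) was left out or the 2 groups were fitted alone (−2.17, adjusted p = 0.0514). In the blocked fit both Tgfbr2 calls held without each clone and without that library, which for Dox against untreated gave an adjusted p of 0.0286 without clone 2 and 0.0246 without clone 4.

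Tgfbr1 (Entrez 21812, chromosome 4, 47353222 to 47414926, plus strand), the type I receptor kinase that Tgfbr2 activates, had 132, 95.6 and 128 CPM in Wash clones 1, 2 and 4. It had 125, 86.0 and 138 CPM in Dox and 95.4, 94.6 and 140 CPM in untreated cells. The 3 groups overlapped throughout, and clone 2 was lowest in each. The log2 fold change of Dox against untreated was 0.08, with a 95% interval of −0.47 to 0.62 (adjusted p = 0.870 by edgeR), and that of Wash against Dox was 0.03, with an interval of −0.51 to 0.58 (adjusted p = 0.953).

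As the type II and type I receptors form 1 complex, their levels were set against each other per length, as RPKM (CPM per kilobase of gene model). The ratio of Tgfbr2 to Tgfbr1 was 0.131, 0.466 and 0.329 in Wash clones 1, 2 and 4. It was 0.858, 2.64 and 1.04 in Dox and 0.325, 0.451 and 0.308 in untreated cells. Type II transcripts were thus fewer than type I transcripts in every Wash and untreated library, while in Dox they were about as many in clones 1 and 4 and more in clone 2. The Dox ratios did not overlap those of the other groups, and no test was made of the ratio.

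**Figure D2:**
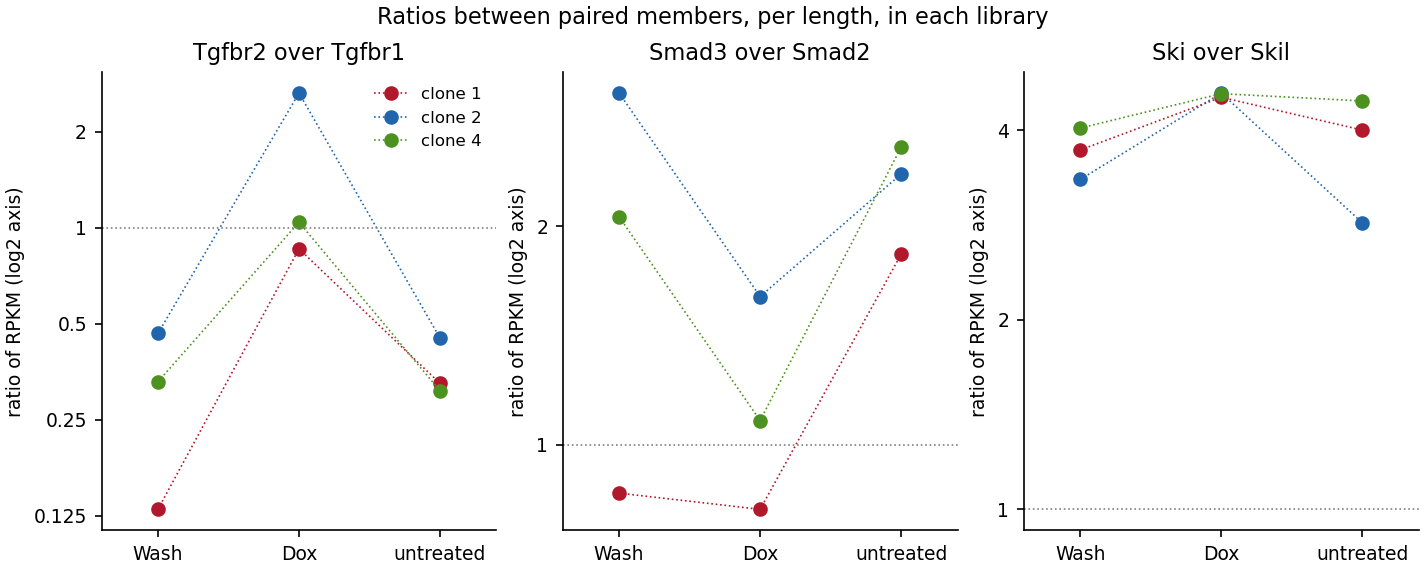
Ratio of length-scaled levels (RPKM; vertical log2 axis) of Tgfbr2 to Tgfbr1, Smad3 to Smad2 and Ski to Skil in each Wash, Dox and untreated library (horizontal axis). Points are single libraries, dotted lines join the libraries of 1 clone, and the grey line marks equal levels. The receptor ratio is highest in Dox in each clone, at 0.858 to 2.64, against at most 0.466 in the other libraries.

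Smad2 (Entrez 17126, chromosome 18, 76241090 to 76311748, plus strand), a receptor-regulated SMAD, had 62.2, 59.3 and 73.7 CPM in Wash clones 1, 2 and 4. The Dox libraries had 88.5, 75.8 and 87.0 CPM and the untreated ones 57.1, 65.2 and 61.9 CPM. All Dox libraries lay above all others, by a small margin over Wash clone 4. Dox against untreated gave a log2 fold change of 0.45 ± 0.15 SE, which missed the threshold with group means (adjusted p = 0.0943 by edgeR) and just passed in the blocked fit (adjusted p = 0.0485). That blocked call was lost without any 1 of the clones (adjusted p of 0.0884, 0.124 and 0.325 without clones 1, 2 and 4) and without the untreated library of clone 1 (0.140). Wash against Dox gave −0.37 ± 0.15 and was not called (adjusted p = 0.170, and 0.0873 with the block).

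Smad3 (Entrez 17127, chromosome 9, 63646766 to 63757994, minus strand), the receptor-regulated SMAD that binds DNA directly, was lowest in clone 1 throughout. That clone had 29.7 CPM in Wash, 40.1 in Dox and 58.2 in untreated cells. Clone 2 had 101 CPM in Wash, 67.5 in Dox and 85.6 in untreated cells, and clone 4 had 84.4, 52.1 and 88.4 CPM in the same order. Dox was below untreated within each clone, with ratios of 0.690, 0.788 and 0.589, but the groups overlapped and the difference was not called (log2 fold change −0.54 ± 0.41, adjusted p = 0.429 by edgeR; 0.127 with the block). Clone 1 was the only one in which Wash lay below Dox, with a ratio of 0.741, against 1.49 in clone 2 and 1.62 in clone 4. In the blocked fit of clones 2 and 4 alone, Smad3 was called lower in Dox than in untreated cells (log2 fold change −0.56, adjusted p = 0.0167) and higher in Wash than in Dox cells (0.64, adjusted p = 0.00877). Over all genes that fit called 4117 and 4325 of 12143 in the same order. Per length, Smad3 exceeded Smad2 in 7 of the 9 libraries, and the exceptions were clone 1 in Wash, with a ratio of 0.858, and in Dox, with 0.815. Untreated clone 1 had a ratio of 1.83, and the Dox libraries of clones 2 and 4 had 1.60 and 1.08.

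Smad4 (Entrez 17128, chromosome 18, 73634790 to 73703791, minus strand), the partner shared by all receptor-regulated SMADs, had 67.1, 65.4 and 84.4 CPM in Wash, 64.8, 54.4 and 62.5 CPM in Dox and 68.2, 70.1 and 84.5 CPM in untreated clones 1, 2 and 4. Every Dox library lay below every other one, by less than 1 CPM between Dox clone 1 and Wash clone 2. The log2 fold change of Dox against untreated was −0.29 ± 0.17 (adjusted p = 0.300 by edgeR), opposite in sign to Smad2. It was called lower only in the blocked fit without clone 1 (−0.40, adjusted p = 0.0409), whose ratio of Dox to untreated was 0.949, against 0.775 and 0.740 in clones 2 and 4. That fit called 4117 of 12143 genes.

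Smad7 (Entrez 17131, chromosome 18, 75367365 to 75395935, plus strand), the inhibitory SMAD that TGF-beta itself is known to induce, stood at 15.9, 38.1 and 19.2 CPM in Wash clones 1, 2 and 4. It stood at 33.9, 37.2 and 24.0 CPM in Dox and at 21.5, 37.9 and 19.0 CPM in untreated cells. Clone 2 stayed within 37.2 to 38.1 CPM in the 3 conditions and was the highest clone in each, whereas in clones 1 and 4 Dox stood above Wash and untreated. The log2 fold change of Dox against untreated was 0.28, with a 95% interval of −0.58 to 1.13 (adjusted p = 0.684 by edgeR).

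Ski (Entrez 20481, chromosome 4, 155154075 to 155222535, minus strand), the SMAD corepressor first found as a viral oncogene, stood at 94.0, 105 and 110 CPM in Wash clones 1, 2 and 4. It reached 187, 171 and 163 CPM in Dox, against 77.0, 93.1 and 118 CPM in untreated cells. The Dox libraries lay above all others, and the clones ran in opposite order in Dox and untreated cells, so the ratio was 2.43 in clone 1, 1.84 in clone 2 and 1.38 in clone 4. Dox averaged 174 ± 12.1 CPM and untreated cells 96.1 ± 20.7 CPM (SD, n = 3 each), and Ski rose (log2 fold change 0.86 ± 0.18 SE, adjusted p = 0.0208 by edgeR). Wash averaged 103 ± 8.02 CPM (SD, n = 3), and Ski fell in Wash against Dox cells (log2 fold change −0.76 ± 0.18, adjusted p = 0.0339 by edgeR).

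The Ski calls were less firm than those of Tgfbr2. For Dox against untreated the adjusted p by edgeR was 0.0802 without clone 1 (log2 fold change 0.66), 0.148 without clone 2 (0.84), 0.193 without clone 4 (1.06) and 0.0892 without the untreated library of clone 1 (0.72). In the blocked fit the call held without clone 1 (adjusted p = 0.00558) and without that library (0.0259), but not without clone 2 (0.0892) or clone 4 (0.0618). For Wash against Dox it was lost without clone 1 (adjusted p = 0.0821), clone 2 (0.187) or clone 4 (0.281), when scaled by library size alone (0.148), with no filter (0.0511) and with the 2 groups alone (0.0887). In the blocked fit that call too was lost without clone 2 (adjusted p = 0.120) or clone 4 (0.105).

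Skil (Entrez 20482, chromosome 3, 31095058 to 31122923, plus strand), the related corepressor SnoN, had 31.0, 38.6 and 33.4 CPM in Wash clones 1, 2 and 4. It had 51.0, 46.0 and 43.9 CPM in Dox, against 23.7, 40.2 and 32.6 CPM in untreated cells. Its pattern had the shape of that of Ski, with all Dox libraries above all others, but at a smaller size (log2 fold change of Dox against untreated 0.55 ± 0.21, adjusted p = 0.134 by edgeR; 0.0546 with the block). The within-clone ratio was 2.16 in clone 1 and 1.15 and 1.35 in clones 2 and 4. Per length Ski exceeded Skil in every library, by 3.34 to 4.03 times in Wash, 4.51 to 4.58 times in Dox and 2.85 to 4.45 times in untreated cells.

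**Figure D3:**
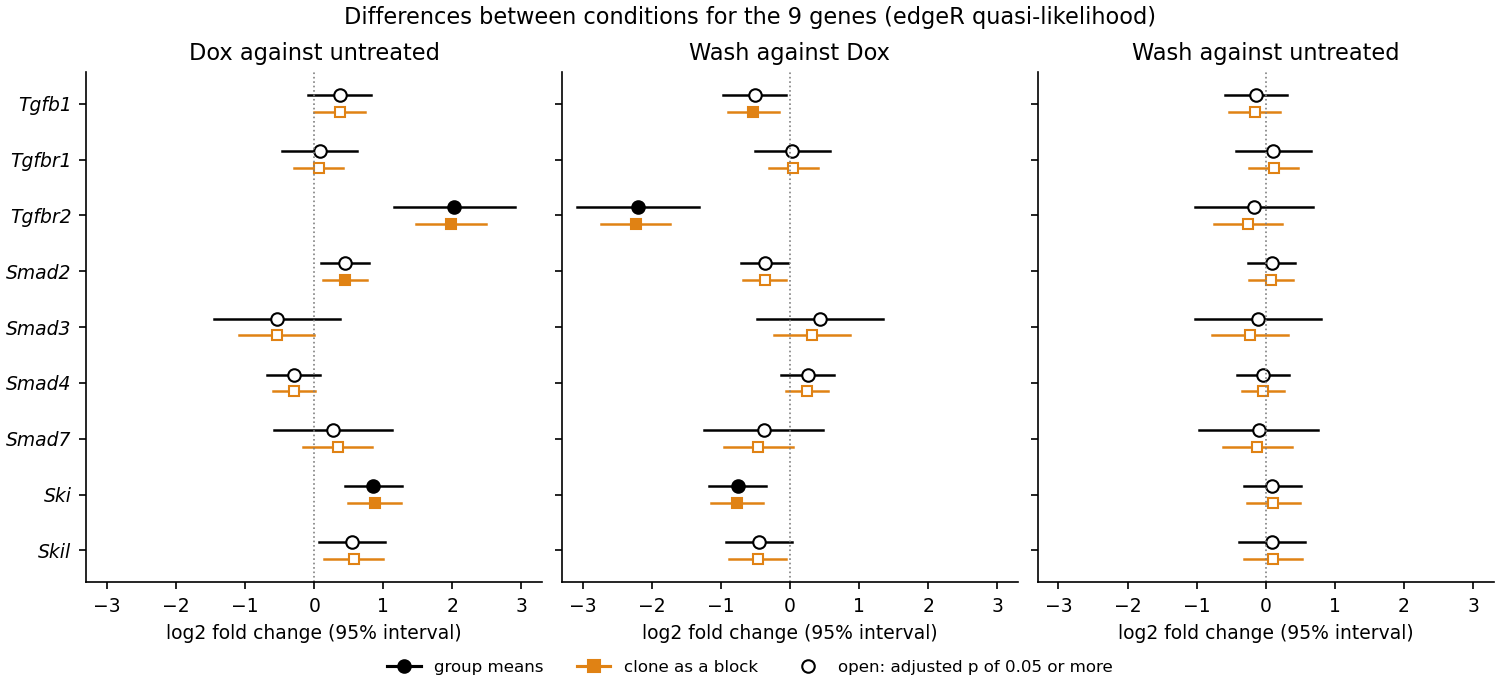
Log2 fold change (horizontal axis) of each of the 9 genes in Dox against untreated, Wash against Dox and Wash against untreated cells, with 95% intervals, from fits with group means (circles) and with the clone as a block (squares). Filled symbols passed an adjusted p of 0.05. Tgfbr2 (2.03 and −2.20) and Ski (0.86 and −0.76) are filled in both fits of the first 2 comparisons, Smad2 and Tgfb1 in 1 blocked fit each, and nothing is filled for Wash against untreated.

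After the full cycle, Wash libraries overlapped untreated ones for all 9 members, where 1.31% of all genes lay wholly above and 1.05% wholly below. By edgeR 0 of the 12004 genes were called between Wash and untreated cells (0% in either direction), with 38 at an unadjusted p under 0.05, and DESeq2 also called 0, with 41. The median log2 fold change was −0.04 over the members and 0.02 over all genes. For Tgfbr2 it was −0.17, with a 95% interval of −1.03 to 0.69, which spans a difference of 2-fold downward. Clone 1 stood apart here. Its ratio of Wash to untreated was 0.558 for Tgfbr2, against 1.04 and 0.977 in clones 2 and 4. For Smad3 it was 0.511, against 1.18 and 0.955. These libraries of clone 1 differed widely over all genes, with a chi-square per degree of freedom of 379.7. The same pairs gave 5.876 in clone 2 and 3.616 in clone 4. Whether the ratios in clone 1 are particular to Tgfbr2 and Smad3 was not tested. For Ski the log2 fold change was 0.10, with an interval of −0.32 to 0.51. An adjusted p of 1 does not show that the levels were equal.

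The order of the members by mean RPKM changed with Dox for the receptor. Tgfb1 led with 118 RPKM in Wash, 168 in Dox and 130 in untreated cells, apart from the next gene in each group. In untreated cells Smad4 (22.2 RPKM), Tgfbr1 (19.4), Ski (17.6) and Smad3 (15.2) followed, and neighbours in this run overlapped. A gap separated them from Tgfbr2 (6.87), Smad2 (6.72), Smad7 (5.88) and Skil (4.79), which overlapped in turn. In Dox cells Ski (31.8 RPKM) and Tgfbr2 (28.0) came next after Tgfb1, followed by Tgfbr1 (20.5) and Smad4 (18.1), with overlap between neighbours. Smad3 (10.5) lay apart from Smad4, and was followed by Smad2 (9.16), Smad7 (7.14) and Skil (6.99). The Wash order was that of untreated cells except that Smad2 (7.12 RPKM) stood above Tgfbr2 (6.12), within their spread.

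The same clone was lowest in all 3 conditions for Tgfb1, Tgfbr2 and Smad3 (clone 1) and for Tgfbr1 (clone 2), and clone 2 was highest for Smad7; the other 4 members had no clone that was lowest or highest throughout. In a model with group and clone, the F test of the clone terms by edgeR gave unadjusted p of 0.00544 for Tgfbr2, 0.00660 for Smad7, 0.00826 for Smad3 and 0.0207 for Tgfbr1, and adjusted p of 0.0609, 0.0634, 0.0676 and 0.0895 in the same order. For Tgfb1 the unadjusted p was 0.155 (adjusted p = 0.259 by edgeR). None of the 9 passed, and neither did any of the 12004 genes (0%), although 4501 had an unadjusted p under 0.05. DESeq2 called 2752 genes, with Tgfbr2 (adjusted p = 0.00485), Smad3 (0.00671) and Smad7 (0.00909) among them. The same 3 members were called by edgeR with no filter, where 1664 of 17582 genes were. Without the untreated library of clone 1 edgeR called these and Tgfbr1 among 3666 of 12309 genes, with adjusted p of 0.0194 for Tgfbr2, 0.0289 for Tgfbr1, 0.0308 for Smad3 and 0.0367 for Smad7. The difference between GFPoff and GFPhigh cells was also compared between clones. By edgeR 0 genes were called (0%), 407 having an unadjusted p under 0.05 with no member among them, and DESeq2 called 5 genes. Each clone has 1 Dox library, so the spread in this test comes from the Wash and untreated libraries of the same clone, and the lone Dox library is assumed to vary as they do.

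For both called members the genes of most similar pattern were sought among 9094 genes, by the root mean square difference of log2 CPM, each centred on its own mean over the 9 libraries. Tgfbr2 was most like Mxd1, a partner of MAX that represses transcription, at a difference of 0.22. Mxd1 averaged 37.8 CPM in Wash, 148 in Dox and 39.7 in untreated cells. Lrp12, a receptor of the LDL receptor family, followed at 0.26 and Reps2, an endocytic adaptor, at 0.29. Ski was most like Rnf166, a RING finger protein, at 0.09, with 46.7 CPM in Wash, 89.2 in Dox and 45.8 in untreated cells, then like Ddx5, an RNA helicase, at 0.11, and Akirin1, a nuclear protein, at 0.11.

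The wider pathway was read from 5 lists of 97 further genes, of which 65 passed the filter. In Dox against untreated cells 8 rose and 3 fell by edgeR, or 16.9% of those tested, beside 10.9% of all genes, and their median log2 fold change was 0.22, beside 0.00. With the clone as a block 14 rose and 10 fell, where the share called over all genes was 24.8%. In Wash against Dox cells 3 rose and 9 fell, or 18.5%, beside 9.66% of all genes, with a median of −0.11, and with the block 7 rose and 16 fell, beside 22.9% of all genes. None of the 65 was called between Wash and untreated cells. In fits with group means the counts in Dox against untreated cells dropped with those of all genes: 2 rose and 0 fell without the untreated library of clone 1, where 347 of 12309 genes were called, 1 rose and 0 fell without clone 2 (159 of 12076 genes), and 0 were called without clone 4 (0 of 12069, with 1608 at an unadjusted p under 0.05).

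Among the 24 ligands and latency proteins 7 were tested. In Dox 3 rose and 0 fell, beside 6.57% of all genes called higher and 4.35% lower. The same 3 fell in Wash against Dox, beside 6.02% of all genes. With the clone as a block 3 rose and 2 fell in Dox, beside 13.0% and 11.7% of all genes. The 2 that fell were Ltbp3 (log2 fold change −1.79, adjusted p = 0.0239 by edgeR) and Ltbp4 (−2.20, adjusted p = 0.0173), both named after their values were seen. Thbs1, thrombospondin 1, which can release TGF-beta from its latent complex, had 1440, 434 and 785 CPM in Wash clones 1, 2 and 4, against 3770, 3140 and 3740 CPM in Dox and 1350, 779 and 766 CPM in untreated cells. Its log2 fold change was 1.88 ± 0.43 in Dox against untreated (adjusted p = 0.0259 by edgeR) and −2.0 in Wash against Dox (adjusted p = 0.0230). Itgav, the integrin alpha v chain whose dimers bind and activate latent TGF-beta, had 14.1 to 19.1 CPM in Wash, 39.7 to 48.2 CPM in Dox and 14.4 to 15.4 CPM in untreated cells, the lowest adjusted p of the 11 pathway genes called in Dox (log2 fold change 1.57 ± 0.19, adjusted p = 0.00217 by edgeR). Gdf11, a ligand that signals through activin receptors, had 1.35 to 3.50 CPM in Wash, 9.88 to 10.2 CPM in Dox and 2.02 to 2.59 CPM in untreated cells (log2 fold change of Dox against untreated 2.08, adjusted p = 0.0114). The Dox libraries were apart from the others for all 3 genes.

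Of 12 other receptors and co-receptors 8 were tested. In Dox 2 of them rose, or 25%, beside 6.57% of all genes, and both were co-receptors of TGF-beta family ligands. With the block 3 rose and 1 fell, beside 13.0% and 11.7% of all genes. Tgfbr3, betaglycan, which presents ligand to Tgfbr2, had 5.71, 8.82 and 5.26 CPM in Wash clones 1, 2 and 4, 10.3, 19.2 and 23.5 CPM in Dox and 6.24, 6.80 and 5.56 CPM in untreated cells (log2 fold change of Dox against untreated 1.51 ± 0.36, adjusted p = 0.0283 by edgeR). Eng, endoglin, had 6.63, 4.78 and 4.40 CPM in Wash, 19.9, 23.9 and 12.2 CPM in Dox and 1.83, 7.43 and 4.82 CPM in untreated cells (1.97 ± 0.47, adjusted p = 0.0299). Both fell in Wash against Dox cells (log2 fold change −1.42, adjusted p = 0.0359, and −1.82, adjusted p = 0.0399). Acvr1b, a type I activin receptor, also fell there and was named after its values were seen: it had 13.2, 25.2 and 25.3 CPM in Wash against 35.4, 48.2 and 52.6 CPM in Dox (log2 fold change −1.10, adjusted p = 0.0373 by edgeR). Both Tgfbr3 calls were lost with limma voom (adjusted p = 0.0540 for Dox against untreated and 0.0505 for Wash against Dox).

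**Figure D4:**
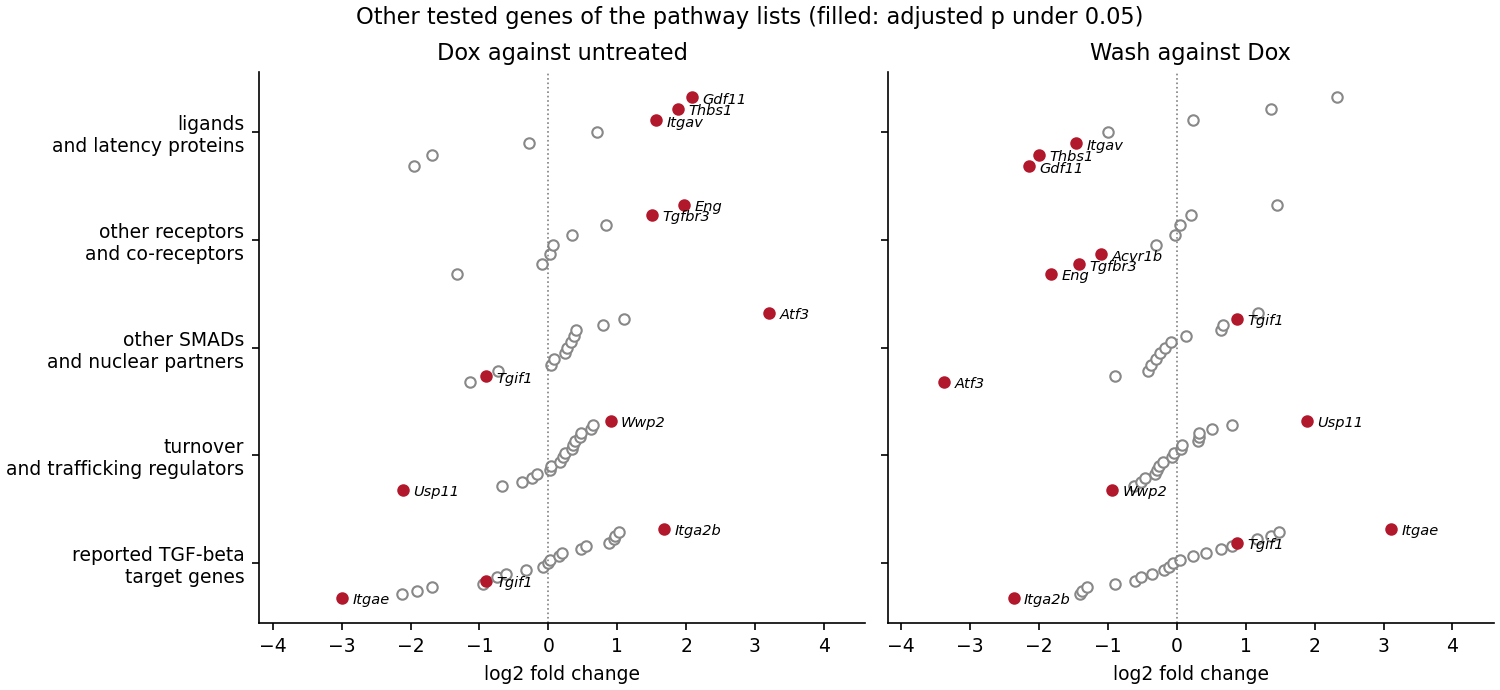
Log2 fold change (horizontal axis) of the tested genes of 5 pathway lists (rows) that are not among the 9, in Dox against untreated and in Wash against Dox cells. Each point is 1 gene, and filled points passed an adjusted p of 0.05 by edgeR. Tgif1 stands in 2 lists; the ligand and receptor genes called in Dox against untreated, such as Gdf11 at 2.08 and Eng at 1.97, are all higher there and lower in Wash.

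Among 16 other SMADs and nuclear partners, 13 were tested, with 1 higher and 1 lower in Dox, or 15.4%, beside 10.9% of all genes. Atf3, a stress-induced factor that works with Smad3, had 0.552, 3.31 and 1.10 CPM in Wash clones 1, 2 and 4, 14.1, 26.3 and 10.9 CPM in Dox and 0.734, 3.40 and 1.24 CPM in untreated cells (log2 fold change of Dox against untreated 3.21 ± 0.73, adjusted p = 0.0252 by edgeR). Tgif1, a repressor of SMAD-driven transcription, fell in Dox and rose again in Wash. It had 24.7, 25.4 and 25.1 CPM in Wash, 14.7, 12.2 and 14.0 CPM in Dox and 29.0, 22.0 and 25.7 CPM in untreated cells (log2 fold change −0.91 ± 0.19, adjusted p = 0.0177 by edgeR, in Dox against untreated and 0.88, adjusted p = 0.0221, in Wash against Dox). Scaled by library size alone, neither Tgif1 call held (adjusted p of 0.165 and 0.105). Thus Ski rose and Tgif1 fell in the same cells, both being repressors of this pathway.

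Of 20 regulators of turnover and trafficking 18 were tested, and 1 rose and 1 fell in Dox, or 11.1%, near the 10.9% over all genes. Wwp2, a ubiquitin ligase that acts on SMADs, rose, with 83.5, 102 and 86.1 CPM in Wash, 154, 193 and 172 CPM in Dox and 79.8, 107 and 90.1 CPM in untreated clones 1, 2 and 4 (log2 fold change of Dox against untreated 0.90 ± 0.18, adjusted p = 0.0139 by edgeR). Usp11, a deubiquitinase, fell, with 19.6, 75.5 and 31.2 CPM in Wash, 10.7, 13.8 and 9.69 CPM in Dox and 50.8, 62.2 and 33.7 CPM in untreated cells (−2.11 ± 0.47, adjusted p = 0.0236). Wash clone 1 lay well below untreated clone 1 for Usp11. In Wash against Dox cells Wwp2 fell (log2 fold change −0.94, adjusted p = 0.0137 by edgeR) and Usp11 rose (1.89, adjusted p = 0.0360), a call that was lost with limma voom (adjusted p = 0.0762).

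Of the 31 reported TGF-beta target genes 24 were tested, 3 of which (Smad7, Ski and Skil) are members. In Dox 2 rose and 2 fell, or 16.7%, beside 10.9% of all genes. Ski is counted among the rises and Tgif1 among the falls, and the median log2 fold change was 0.09. Itgae, the integrin alpha E chain, fell, with 9.76, 3.43 and 2.20 CPM in Wash, 0.529, 0.662 and 0.581 CPM in Dox, which is 5 or 6 counts per library, and 5.87, 5.67 and 2.84 CPM in untreated clones 1, 2 and 4 (log2 fold change of Dox against untreated −2.99, adjusted p = 0.0197 by edgeR). Itga2b, the platelet integrin alpha IIb chain, rose to 499, 666 and 457 CPM in Dox, against 244, 180 and 83.6 CPM in untreated cells (log2 fold change 1.68, adjusted p = 0.0224), and stood at 104, 129 and 79.8 CPM in Wash. Itga2b fell in Wash against Dox cells (log2 fold change −2.37, adjusted p = 0.00708 by edgeR) and Itgae rose (3.11, adjusted p = 0.0190); both Itgae calls were lost with limma voom (adjusted p = 0.0511 and 0.0509). All 11 pathway genes named for Dox against untreated cells were called in Wash against Dox with the opposite sign, in comparisons that share the Dox libraries.

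Markers of other cell types and of maturation were read beside these results. The summed level of 9 neutrophil maturation markers, 8 of them tested, was 232 to 473 CPM in Wash, 981 to 2940 CPM in Dox and 243 to 427 CPM in untreated libraries. Most of the untreated sum was Cebpe, at 221 to 327 CPM, against 399 to 544 CPM in Dox. Camp (3.39 to 11.9 CPM in Dox, 1.48 to 11.4 untreated) and Mmp8 (0.353 to 0.794 and 0 to 1.65) overlapped. Each other marker of the list was higher in every Dox than in every untreated library, such as S100a9 (324 to 993 and 3.46 to 15 CPM). That of 8 platelet and megakaryocyte markers was 87.2 to 136 CPM in Wash, 466 to 676 CPM in Dox and 89.1 to 247 CPM in untreated libraries, nearly all of it Itga2b, while Pf4 was at 0 in all libraries and Ppbp reached at most 0.291 CPM. The 7 monocyte and macrophage markers summed to 1810 to 2250 CPM in Wash, 1210 to 5370 CPM in Dox and 1780 to 2300 CPM in untreated libraries. Most of that sum was Ly6c2, at 1160 to 5130 CPM over all libraries. Cx3cr1 had 0.265 to 0.485 CPM in Dox and 7.52 to 22.4 CPM in untreated libraries. Adgre1 had 15.1 to 158 CPM in Dox and 14.8 to 29.3 CPM in untreated libraries. Csf1r had 6.79 to 20 CPM in Dox and 16.9 to 38.7 CPM in untreated libraries. Both its lowest value (0.552 CPM) and its highest (62 CPM) lay in Wash. The 8 fibroblast and stroma markers summed to 99.2 to 180 CPM in Wash, 116 to 174 CPM in Dox and 163 to 179 CPM in untreated libraries, with Col1a2, Dcn and Lum at 0. Nearly all of that sum was Pdgfrb, at 86.5 to 168 CPM over all libraries, and Thy1, at 5.81 to 61.8 CPM. The part of neutrophil maturation in the levels of the receptor, of Ski and of the pathway genes was not tested.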

How the data were processed

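Cells were sorted by GFP and RNA was prepared with a QIAGEN RNeasy kit on the same day, per the labels' protocols. Each of the 9 libraries has 1 file of deposited counts: whole numbers per Entrez gene, not normalized, per the file headers, beside the gene length used for RPKM. The submitters' processing notes name the mm10 build, featureCounts, limma 3.22.0, edgeR 3.8.2 and CASAVA 1.8.2. Not given in the sources used here are the aligner, the annotation, the strand setting and how multiply matching reads were counted, so reads of antisense genes and paralogs may be shared. In the GENCODE mouse annotation no exon of a member shares bases with an exon of another gene. The gene models that were counted could not be checked for this. Symbols and coordinates came from RefSeq tables of GRCm38, the build also called mm10; 25275 of 27179 entries matched a symbol.

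The 9 genes, the gene lists and the tests were chosen with earlier results of these data known. Genes were filtered with filterByExpr and scaled by TMM, and CPM and RPKM use these scaled library sizes. A quasi-likelihood model with 3 group means was fitted to all 9 libraries (edgeR 4.0.16, R 4.3.3), with Benjamini-Hochberg adjustment over 12004 genes at 0.05. SE is the log2 fold change over the root of its F statistic. The response of clones was tested in a model of clone, GFP gate and their interaction, with Wash and untreated libraries of a clone as 2 samples. Intervals are 95%. A floor of 3 counts covers counting error only. The scripts were tested on simulated data.

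A clone number marks 1 cell line and so pairs its libraries: deviations from the group means correlated at 0.29 to 0.68 in 9 pairs of the same clone and at −0.69 to 0.32 in 18 other pairs. No pair of libraries agreed within sampling noise (lowest chi-square per degree of freedom 3.62). Named are the 9 genes, Spi1 (levels only), up to 4 genes per pathway list called in Dox against untreated by smallest p, the 3 genes most like each called member (mean log2 CPM 3 or more), and the entry above 10% of a library.

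Other settings tried were library size alone, RLE size factors, no filter, 5 CPM in 3 libraries, DESeq2 1.42.0, limma 3.58.1 voom, the 2 groups alone, the clone as a block, leaving out each clone or the untreated library of clone 1, and leaving out the most abundant entry. Blocked leave-outs and the fit without mitochondrial genes were added after seeing the data. Figures were drawn with matplotlib 3.10.9.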

Additional observations from a re-analysis of the deposited data

How the results depend on the processing

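The calls rest on 3 clones of 1 line, with 7408118 to 9803258 counts per library. For the 9 genes in Dox against untreated cells, 2 higher calls became 0 to 1 when a clone was left out and 0 without the untreated library of clone 1. Over all genes the 1311 calls became 967, 159 and 0 without clones 1, 2 and 4 and 347 without that library, so with clone 4 left out no gene was called at all. With the replicate block and a clone left out, 1 to 3 of the 9 members were called higher and 0 to 2 lower. Those blocked fits called 4117, 623 and 360 of all genes without clones 1, 2 and 4. In Wash against Dox, 2 lower calls became 1 with library size alone or no filter, 0 with the 2 groups alone, 0 to 1 without a clone, and 1 to 3 with the block and without a clone, with 0 to 1 higher. The 1160 calls over all genes became 1069, 70 and 4 without clones 1, 2 and 4. With the block they were 4325, 421 and 320 in the same order. Fewer libraries or genes enter some of these fits; the cause was otherwise not tested. The block changed the calls of Smad2 and Tgfb1 given above and no other call or direction among the members. RLE size factors, the 5 CPM filter, DESeq2, limma voom, and leaving out the most abundant entry or mitochondrial genes kept the calls of Tgfbr2 and Ski in both comparisons.

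Among the 65 pathway genes in Dox against untreated, 8 higher and 3 lower became 14 and 10 with the replicate block; 5 were lower with DESeq2 and 6 with the 2 groups alone. They ranged over 0 to 7 higher and 0 to 2 lower without a clone, and were 2 and 0 without untreated clone 1. With the block they ranged over 2 to 23 higher and 0 to 13 lower, and 7 were lower without that library. The calls over all genes moved too: the blocked fits called 4117, 623 and 360 without clones 1, 2 and 4. Without that library the blocked fit called 2414 of 12309. DESeq2 called 974 of all genes lower and the 2 groups alone 858. In Wash against Dox, 3 higher and 9 lower became 7 and 16 with the block; 6 were higher with DESeq2, and 0 higher and 2 lower with the 2 groups alone. They ranged over 0 to 2 higher and 0 to 9 lower without a clone, over 0 to 13 and 3 to 27 with the block, and were 10 and 19 when the block was used and untreated clone 1 left out. Over all genes the blocked fits called 4325, 421 and 320 without clones 1, 2 and 4, and 3561 of 12309 without untreated clone 1. DESeq2 called 894 of all genes higher, and the 2 groups alone called 94 higher and 230 lower. Of the 11 pathway genes named for Dox against untreated, 10 stayed called with library size alone, 9 with limma voom, 7 without clone 1, 1 without clone 2, 0 without clone 4 and 2 without untreated clone 1. Of the 12 called in Wash against Dox, Acvr1b included, 2 stayed called with the 2 groups alone.

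Between clones, 0 members became 3 with no filter or DESeq2 and 4 without untreated clone 1, and for the response of clones 0 became 4 without it, where 4171 genes were called. In that fit the spread comes from the Wash and untreated libraries of clones 2 and 4 alone, the closest pairs of libraries (chi-square per degree of freedom 5.88 and 3.62), and each lone library is assumed to vary like them, so nothing is read from these 4. With library size alone, the all-gene median log2 fold change was 0.23 in Dox against untreated, with 796 higher and 257 lower calls in place of 789 and 522, and 0.22 in Wash against untreated.

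Changes of sign touched log2 fold changes that were not called. Tgfbr1 in Dox against untreated ranged over −0.0692 to 0.150 without a clone, and with the block became −0.0796 without clone 1 and −0.0936 without untreated clone 1; in Wash against Dox it was −0.00698 with library size alone and −0.00658 to 0.131 without a clone. In Wash against untreated, library size alone gave 0.0279 for Tgfb1, 0.00172 for Smad3, 0.143 for Smad4 and 0.0483 for Smad7. Leaving out a clone or untreated clone 1 there gave −0.0692 to 0.266 for Tgfbr1, −0.329 to 0.0143 for Tgfbr2, −0.00684 to 0.189 for Smad2, −0.367 to 0.0889 for Smad3, −0.222 to 0.00909 for Smad7, −0.0377 to 0.226 for Ski and −0.0830 to 0.189 for Skil. With the block and without clone 1 Tgfbr1 was −0.0566, Tgfbr2 0.0105, Smad3 0.0798, Smad7 0.00965 and Skil −0.0139. With the block, Smad2 was −0.00828 without clone 4, and without untreated clone 1 Tgfbr1 was −0.0450, Ski −0.0308 and Skil −0.0790.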
